A study of Mus musculus with 6 samples.

Results

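The genes described here write, copy and remove cytosine methylation in DNA. They are Dnmt1 and Uhrf1, which maintain methylation, Dnmt3a, Dnmt3b and Dnmt3l, which establish it, Tet1, Tet2 and Tet3, which oxidise it, and Tdg, which excises the oxidised bases. The 9 genes were chosen by name, with earlier results of these data known. All 9 had a row among the 17110 genes of the authors' deposited table of fold changes. All 9 gene identifiers also stood in the deposited table of counts, whose values were not used, as explained under the processing. The study sequenced polyadenylated RNA from the mouse embryonic stem cell line labelled TG2A, which carries a fluorescent reporter of MERVL, a retroviral element that is transcribed in two-cell mouse embryos. The genotype label, MERVL::Fluorescent protein, is the same for every sample. Cells grown in serum with leukemia inhibitory factor were sorted by flow cytometry into a DsRed2+ and a DsRed2- group, with 3 biological replicates each, collected on different dates per the labels. No age or treatment other than the sort is given, and no embryo was sampled.

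In mammals DNMT1 copies methylation to the new strand after replication, and UHRF1 recognises hemimethylated sites and brings DNMT1 to them. DNMT3A and DNMT3B methylate unmarked cytosines, and DNMT3L is a catalytically inactive partner that stimulates them and is abundant in germ cells and embryonic stem cells. TET enzymes oxidise methylcytosine with 2-oxoglutarate as a cosubstrate, and TDG removes the most oxidised forms, after which base excision repair restores cytosine. Embryonic stem cells in serum are heavily methylated compared with those in media that hold the naive state, and primed epiblast cells have high Dnmt3b.

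Every fold change below is on the log2 scale and comes from 1 comparison, with the sign that the authors' deposited table gives it. The table names neither the groups compared nor the numerator, so a positive value cannot be assigned to the DsRed2+ or the DsRed2- cells here. Values per sample and depth per library were not analysed, so the spread between replicates enters only through the authors' standard error. A gene is called past the threshold at an adjusted p-value under 0.05, and intervals are normal 95% intervals from the standard error. In bulk samples a change in the share of cells that express a gene and a change per cell cannot be told apart.

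The whole table gives the scale for these genes. Mean normalized counts in the authors' deposited table had a median of 394, and log2 fold changes had a median of 0.0097 over all genes. Of all genes, 14.6% were past the threshold and positive and 15.9% negative. Of the 10 pluripotency markers with a row, 7 were past the threshold and positive and 0 negative, and their mean normalized counts lay between 4472 and 38163 in the authors' deposited table, which Pou5f1 (32811) and Sox2 (10086) exemplify. Those with the smallest p-values were Zfp42, at a log2 fold change of 1.10, and Dppa5a, at 1.29. Only 5 of 24 listed two-cell-like markers had a row that could be used. Of these, 2 were past the threshold and positive, Calcoco2 at 3.10 and Zfp809 at 0.91. Nelfa (0.22), Eif1ad (0.074) and Arg2 (0.45, at a mean count of 6.12) were not past it. Whether the 5 genes mark the two-cell-like state in these cells was not tested. Markers of other cell types, where past the threshold, were mostly negative in the authors' deposited table. Past the threshold were 0 positive and 6 negative of 10 fibroblast genes, 2 and 7 of 12 trophectoderm genes, and 1 and 4 of 12 primitive endoderm genes, with median mean counts of 53.9, 254.5 and 66.1. The smallest p-values of these lists belonged to Tagln (-5.96) and Twist1 (-2.54) among fibroblast genes, to Krt19 (-4.73) and Tfeb (1.20) among trophectoderm genes, and to Lama1 (1.91) and Dab2 (-2.18) among primitive endoderm genes. Where a count is 0 for the pluripotency, fibroblast, reader, deaminase and 2-oxoglutarate lists of this text, it is also 0 at an unadjusted p-value under 0.05 from DESeq2. The fibroblast markers Col3a1, Twist2, Postn, Lum and Dcn were not analysed here. The part of these other cells in the values below was not tested.

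The promoters of the 3 enzyme genes with the largest positive fold changes, Dnmt3l, Tet2 and Tet1, and of Tet3, the only Tet gene on the negative side, are shown because they differ widely in CpG dinucleotides, the sites that the enzymes themselves act on. Each sequence is the 250 bases before the most upstream RefSeq start (build GRCm38.p6, read 5′ to 3′ on the gene's strand), with every CpG in capitals. They lie at chr10:78042037-78042286 (plus strand, Dnmt3l), chr3:133544391-133544640 (minus, Tet2), chr10:62887325-62887574 (minus, Tet1) and chr6:83441679-83441928 (minus, Tet3).
Dnmt3l: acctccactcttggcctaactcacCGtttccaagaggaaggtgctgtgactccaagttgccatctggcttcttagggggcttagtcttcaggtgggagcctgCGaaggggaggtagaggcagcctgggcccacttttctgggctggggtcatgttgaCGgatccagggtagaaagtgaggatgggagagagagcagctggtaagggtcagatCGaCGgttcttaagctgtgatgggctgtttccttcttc
Tet2: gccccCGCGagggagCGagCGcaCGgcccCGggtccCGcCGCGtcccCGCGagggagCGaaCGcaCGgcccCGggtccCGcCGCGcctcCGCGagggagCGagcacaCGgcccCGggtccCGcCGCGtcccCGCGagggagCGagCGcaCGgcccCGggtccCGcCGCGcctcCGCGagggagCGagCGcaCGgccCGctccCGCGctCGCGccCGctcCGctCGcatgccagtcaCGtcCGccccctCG
Tet1: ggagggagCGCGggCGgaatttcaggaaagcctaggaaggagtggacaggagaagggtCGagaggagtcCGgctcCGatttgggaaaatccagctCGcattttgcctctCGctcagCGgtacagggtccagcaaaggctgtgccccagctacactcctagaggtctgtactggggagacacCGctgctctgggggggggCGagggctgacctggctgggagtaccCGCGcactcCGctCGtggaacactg
Tet3: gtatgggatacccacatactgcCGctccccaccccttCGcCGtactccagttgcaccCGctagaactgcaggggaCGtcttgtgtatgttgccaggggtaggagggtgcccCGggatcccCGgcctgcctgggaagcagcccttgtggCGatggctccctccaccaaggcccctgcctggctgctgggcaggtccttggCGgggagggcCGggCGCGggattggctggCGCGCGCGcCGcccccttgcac

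All 9 enzyme genes matched RefSeq promoters, with 16 starts in all. The Dnmt3l window above held 5 CpG dinucleotides, and the windows before its other starts held 4 and 3, against a median of 6 over 32841 promoters of the same length. These Dnmt3l windows held more CpG than 44.4%, 37.8% and 29.0% of all promoters. Tet2 held 51, more than 99.9% of all promoters. Tet1 held 15, Tet3 17, Tdg 19 and Dnmt3b 21. Dnmt1 ranged from 2 to 26 over 3 starts, Uhrf1 from 10 to 30 over 2, and Dnmt3a from 15 to 40 over 3. The windows of Dnmt3l, Tet1 and Tet2 thus range from below the median to rich in CpG. Which start these cells used was not analysed here.

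**Figure D1:**
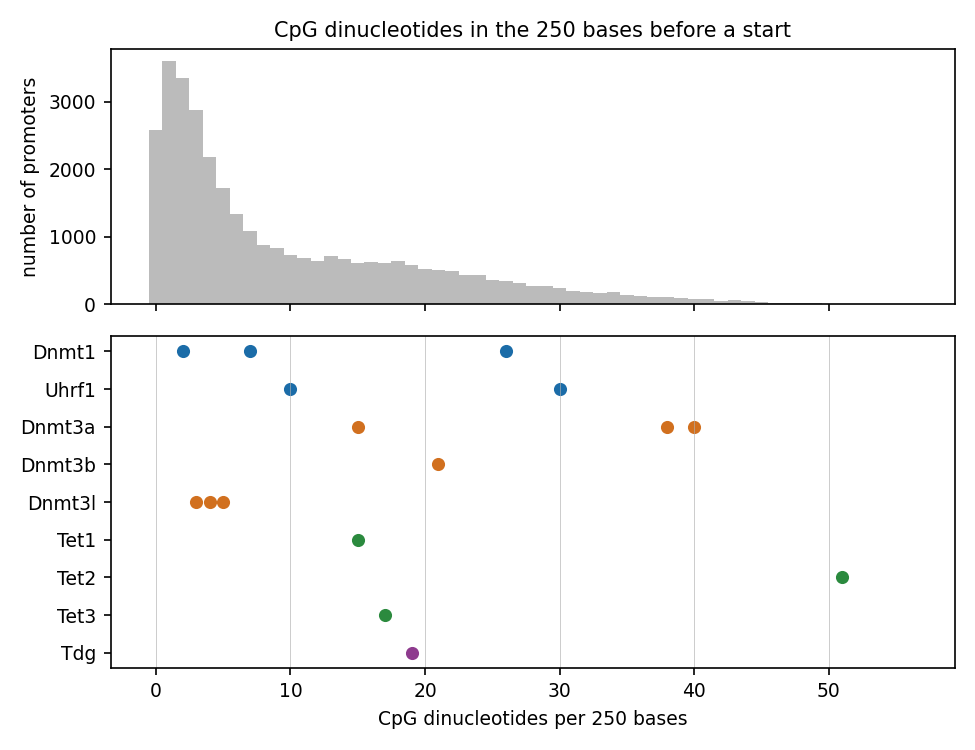
The upper panel is a histogram of CpG dinucleotides in the 250 bases before each of 32841 RefSeq starts (horizontal axis, CpG per 250 bases; vertical axis, number of promoters). In the lower panel each point is 1 start of an enzyme gene, with colours for maintenance, de novo, oxidation and excision genes. The 3 Dnmt3l points sit between 3 and 5 and the Tet2 point at 51.

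A search of the same windows on both strands looked for short motifs of general promoter factors and of cell cycle and pluripotency factors. The GC box GGGCGG was found before 11 of the 16 starts, in 8 of the 9 genes, and in 32.7% of all promoters. The CCAAT box CCAAT was found before 6 starts in 4 genes (33.9% of all promoters), and the E box CACGTG before 3 starts in 3 genes (6.02%). The E2F forms TTTCCCGC and TTTGGCGC (0.895% and 0.417% of all promoters), the octamer ATTTGCAT (1.60%) and the nuclear receptor element TCAAGGTCA (0.387%) were not found in these windows. The GC box contains a CpG, so it and the CpG count are not independent.

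Most of the enzyme genes differed between the compared groups, and they did so in both directions. Of the 9 genes, 8 were past the threshold by the authors' deposited table, 5 of them positive (Dnmt1, Uhrf1, Dnmt3l, Tet1 and Tet2) and 3 negative (Dnmt3b, Tet3 and Tdg), while Dnmt3a was not past it. Among all genes 30.5% were past the threshold, 14.6% positive and 15.9% negative. This split of 2492 positive and 2719 negative genes depends on the scaling, and became 1864 and 3508 when centred on ribosomal protein genes and 3573 and 2281 on removal of the trend with GC content and length. Among the 5780 genes with a mean normalized count of at least 1000, a range that holds 8 of the 9 enzymes, the share was 31.0%, made up of 18.3% positive and 12.6% negative. With the authors' own limit of an absolute log2 fold change over 0.5 as well, 4 enzymes remained, Dnmt3l, Tet1 and Tet2 called up and Tet3 called down, against 21.5% of all genes (9.40% up and 12.1% down) and 11.5% of those with a mean of at least 1000 (6.16% up and 5.33% down). The median log2 fold change of the 9 genes was 0.39 in the authors' deposited table, and that of all genes with a mean of at least 1000 was 0.057. Because the 9 genes were chosen with earlier results of these data known, their share past the threshold is no independent evidence.

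**Figure D2:**
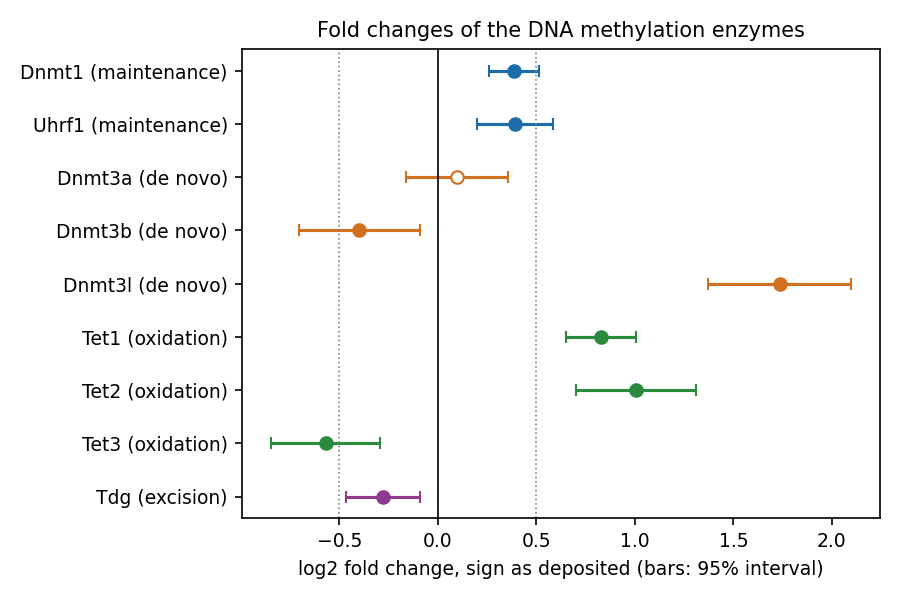
Log2 fold changes of the 9 enzyme genes from the authors' deposited table (horizontal axis, sign as deposited), with 95% intervals as bars, filled points for an adjusted p-value under 0.05 and dotted lines at the authors' limit of 0.5. Dnmt3l, Tet2 and Tet1 lie wholly above the limit, and the only interval that crosses 0 is that of Dnmt3a.

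The maintenance pair gave nearly the same value. Dnmt1 (ENSMUSG00000004099), the copying methyltransferase, had a mean normalized count of 13555 and a log2 fold change of 0.39 ± 0.065 (SE) by the authors' deposited table (adjusted p-value 4.45e-08). On the linear scale this is 1.31-fold, with an interval from 1.20 to 1.43. Uhrf1 (ENSMUSG00000001228), which recruits DNMT1, had a mean of 13721 and a log2 fold change of 0.39 ± 0.099 (SE) by the same table (adjusted p-value 0.000489), with an interval from 0.20 to 0.58 on the log2 scale. Both are below the authors' limit of 0.5, and 41.4% and 41.0% of all genes had an absolute fold change at least as large.

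The partners of maintenance methylation were past the threshold about as often as all genes, in both directions. Of 12 listed partners, 2 were past the threshold and positive and 2 negative by the authors' deposited table. Positive and negative shares of all genes were 14.6% and 15.9%. The median of the partners was 0.063. The positive ones were Usp7, the deubiquitinase that acts on UHRF1 and DNMT1 (0.54, standard error 0.084), and Hells, a remodelling ATPase needed for DNA methylation (0.38, standard error 0.11). On the negative side the authors' deposited table placed Pclaf, a PCNA-binding factor that is ubiquitylated by UHRF1 (-0.70, standard error 0.076), and Uhrf2, the paralog of Uhrf1 (-0.58, standard error 0.16). Uhrf1 and Uhrf2 therefore lay on opposite sides of 0. Pcna, the replication clamp that DNMT1 binds, had 0.14 ± 0.14 (SE) and was not past the threshold (adjusted p-value 0.514). Because Dnmt1 and Uhrf1 are expressed with DNA replication, the S phase genes are given beside them. Of 30 S phase genes, 7 were past the threshold and positive and 2 negative (median 0.073), beside 14.6% and 15.9% of all genes. Removal of the trend with GC content and length changed these counts to 12 and 1 (median 0.21), or to 7 and 2 with all genes then centred (median 0.14), and centring on ribosomal protein genes gave 3 positive and 3 negative (median -0.020). Pola1, a polymerase alpha subunit, had 0.72, and Ccne2, a G1/S cyclin, had -1.23. The part of the cell cycle in the Dnmt1 and Uhrf1 values was not tested.

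The 3 Dnmt3 genes went 3 ways. Dnmt3l (ENSMUSG00000000730), the catalytically inactive cofactor, had a mean normalized count of 5075 and a log2 fold change of 1.73 ± 0.18 (SE) by the authors' deposited table (adjusted p-value 2.69e-19). This is 3.33-fold, with an interval from 2.59 to 4.28. It ranked at place 312 of 17110 by p-value, and 7.77% of genes had an absolute fold change at least as large. The gene shares 67 exonic bases, 2.24% of its merged exons, with Aire on the opposite strand, and Aire had a log2 fold change of 2.21 at a mean count of 303 in the authors' deposited table.

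Its catalytic partners differed from it. Dnmt3a (ENSMUSG00000020661) had a mean normalized count of 4119 and a log2 fold change of 0.098 ± 0.13 (SE) by the authors' deposited table (adjusted p-value 0.641). Its interval, from -0.16 to 0.36, leaves room for a change of up to 1.28-fold upward or 1.12-fold downward. Dnmt3b (ENSMUSG00000027478) had a mean of 14616 and a log2 fold change of -0.40 ± 0.16 (SE) by the authors' deposited table (adjusted p-value 0.039), which is 1.32-fold lower with an interval from 1.06 to 1.63. This call was lost when the trend of fold change with GC content and length was removed (-0.28, adjusted p-value 0.172), also with the result centred on the median of all genes (-0.34, adjusted p-value 0.0809). The Dnmt3l interval did not overlap that of either partner, but the difference between genes was not tested, since their errors come from the same libraries. Annotation holds a close relative, Dnmt3c, and pseudogenes named for Dnmt3a, Dnmt3l and Tdg, so reads may have been divided among copies.

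Regulators of these enzymes are listed next to them. Of 17 genes in this list, 6 were past the threshold and positive and 3 negative by the authors' deposited table. The same shares of all genes were 14.6% and 15.9%. The list's median of -0.046 turned to 0.16 on removal of the GC and length trend and to 0.096 with all genes then centred. The positive ones include Prdm14, a repressor of Dnmt3 genes in naive cells (0.77, standard error 0.24), Nsd1, a histone H3 lysine 36 methyltransferase whose mark recruits DNMT3A (0.58, standard error 0.092), and Zfp281, a factor that works with Tet1 (0.41, standard error 0.13). Dppa2 and Dppa4, which keep developmental promoters free of methylation, had 1.11 and 0.80, with standard errors of 0.15 and 0.13 in the authors' deposited table. Dcaf1, a ubiquitin ligase adaptor linked to TET activity, had 0.38 ± 0.089 (SE). The 3 negative genes were Nsd2, another lysine 36 methyltransferase (-1.25, standard error 0.11), Dppa3, which displaces UHRF1 from chromatin (-0.76, standard error 0.19), and Cxxc4, which binds TET2 (-2.30, standard error 0.50, at a mean count of only 23.2). Nsd1 and Nsd2 thus had opposite signs, while Setd2, a further lysine 36 methyltransferase of the list, had 0.083 ± 0.16 (SE) and was not past the threshold. Prdm14 and Dnmt3l were both positive, and Prdm14 and Dnmt3b opposite in sign.

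Among the Tet genes, the highly expressed ones were positive and the weakly expressed one negative. Tet1 (ENSMUSG00000047146), the main TET of embryonic stem cells, had a mean normalized count of 18936 and a log2 fold change of 0.83 ± 0.091 (SE) by the authors' deposited table (adjusted p-value 5.82e-18), or 1.78-fold with an interval from 1.57 to 2.01. Tet2 (ENSMUSG00000040943), which lacks the CXXC domain of its relatives, had a mean of 3853 and a log2 fold change of 1.01 ± 0.16 (SE) by the authors' deposited table (adjusted p-value 2.25e-09), or 2.01-fold with an interval from 1.62 to 2.48. The intervals of Tet1 and Tet2 overlap. Tet3 (ENSMUSG00000034832), the TET of the oocyte and zygote, had a mean of 396 and a log2 fold change of -0.57 ± 0.14 (SE) by the authors' deposited table (adjusted p-value 0.000349), which is 1.48-fold lower with an interval from 1.23 to 1.80. At this mean Tet3 is close to the median gene, whereas Tet1 exceeds 98.5% of genes.

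Tdg (ENSMUSG00000034674), the glycosylase that acts after the TET enzymes, had a mean normalized count of 2317 and a log2 fold change of -0.28 ± 0.096 (SE) by the authors' deposited table (adjusted p-value 0.0142). This is 1.21-fold lower, with an interval from 1.07 to 1.38, and 51.6% of genes had an absolute fold change at least as large. The call was lost on removal of the GC and length trend (-0.18, adjusted p-value 0.129), which moves the median of all genes to 0.067, and was present when the result was then centred on that median (-0.25, adjusted p-value 0.0301). Tdg shares 367 exonic bases, 6.83% of its merged exons, with Glt8d2 on the opposite strand, whose mean normalized count was 7.99. Of 19 genes listed for base excision repair, 2 were past the threshold and positive and 2 negative by the authors' deposited table. Positive and negative shares of all genes were 14.6% and 15.9%. The median of this list was -0.024, and its counts were 1 and 3 when centred on ribosomal protein genes. Of the Gadd45 genes in the list, which are stress-inducible, Gadd45g had 0.68, Gadd45b -1.53 and Gadd45a -0.32. Outside them only Parp1, a strand break sensor (0.23), was past the threshold. The other glycosylases of the list, Ung, Smug1, Mbd4, Neil1, Neil2, Neil3, Ogg1 and Nthl1, were not past it, with values from -0.47 for Neil3 (adjusted p-value 0.065) to 0.22 for Smug1.

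**Figure D3:**
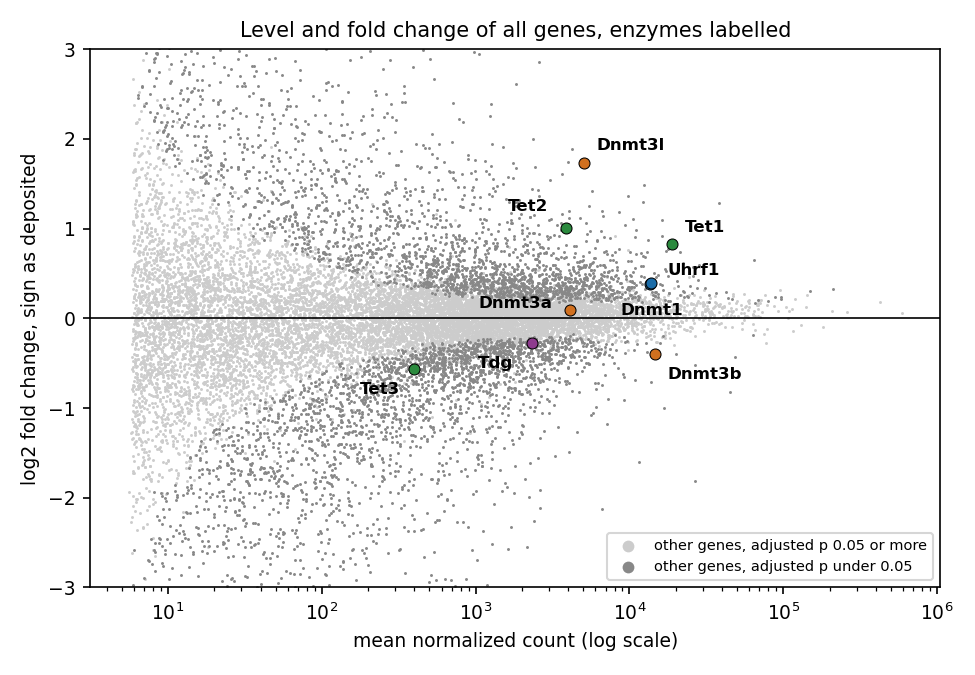
Each point is a gene of the authors' deposited table, with the mean normalized count on a log axis (horizontal) and the log2 fold change, sign as deposited (vertical). Enzyme genes are coloured by role and labelled, and 410 genes with an absolute fold change over 3 lie outside the plotted range. Tet3 is the only enzyme with a mean under 1000, and Dnmt3l, at 1.73, is the highest of the 9.

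Levels of different genes can be compared only per length. Per kb of the longest GENCODE transcript, the authors' mean normalized counts came to 3826 for Uhrf1, 3383 for Dnmt3b, 2785 for Dnmt3l and 2309 for Dnmt1. They were followed by 1318 for Tet1, 662 for Tdg, 425 for Dnmt3a, 419.8 for Tet2 and 36.3 for Tet3. The order has no error, since these are means over libraries deposited by the authors, and Dnmt3a and Tet2 are nearly level. Within its family, in these means over both groups, Dnmt3b made up 51.3% of the level per kb and Dnmt3l 42.2%, which leaves 6.45% for Dnmt3a. Tet1 accounted for 74.3% of the Tet level per kb, Tet2 for 23.7% and Tet3 for 2.04%.

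With all exons of a gene merged as its length, the levels fell to 3222 for Uhrf1, 2863 for Dnmt3b, 1837 for Dnmt1, 1698 for Dnmt3l, 1225 for Tet1, 431 for Tdg, 247 for Dnmt3a, 228 for Tet2 and 23.7 for Tet3. Dnmt1 and Dnmt3l then change places. Tet1 exceeded Tet2 by 3.14 times per kb of the longest transcript and by 5.36 times per kb of merged exons. In the pooled means the order of Dnmt3b above Dnmt3l above Dnmt3a, and of Tet1 above Tet2 above Tet3, was the same with both lengths. These levels are means pooled over both groups, and the order need not hold within each. If the groups weigh equally in the authors' mean, the fold changes split it, per kb of the longest transcript, into 4284 for Dnmt3l and 2919 for Dnmt3b in the group where Dnmt3l is higher, and 1287 and 3848 in the other. Per kb of merged exons the same split gives 2612 for Dnmt3l and 2470 for Dnmt3b in the first group, and 785 and 3255 in the other. On this reckoning Dnmt3l lies above Dnmt3b in 1 group and below it in the other, while Tet1 lies above Tet2 and Tet2 above Tet3 in both.

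**Figure D4:**
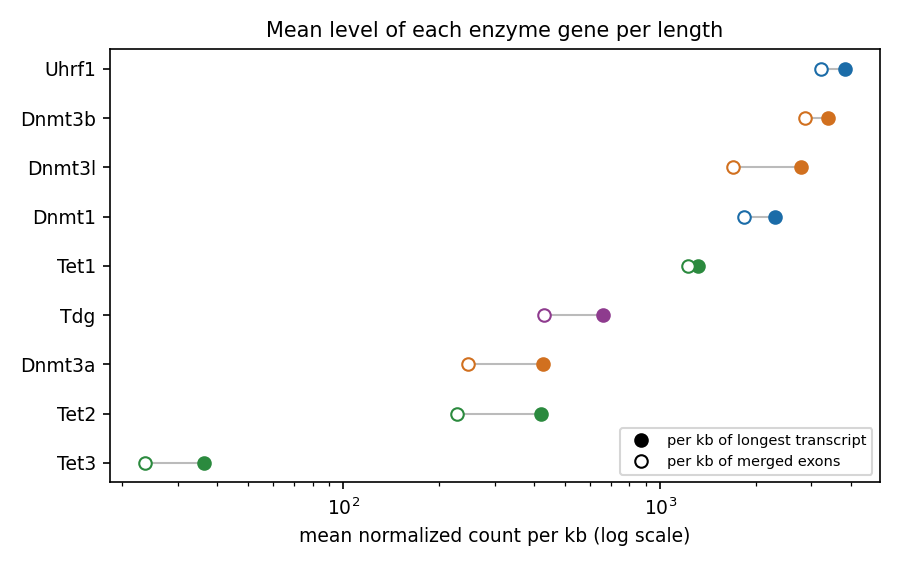
Mean normalized counts from the authors' deposited table divided by gene length in kb (horizontal log axis), for each enzyme gene, coloured by role. Filled points use the longest transcript and open points all exons merged, and the Tet genes run from 36.3 for Tet3 to 1318 for Tet1 on the first of these lengths.

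The genes that feed or read DNA methylation were past the threshold about as often as all genes, 13 of 50 (26.0%) against 30.5%. Among 20 genes of the methionine cycle and S-adenosylmethionine supply, 6 were past the threshold and positive and 2 negative by the authors' deposited table, around a median of 0.20. These counts became 10 and 1 on removal of the GC and length trend, 7 and 1 with all genes then centred, and 5 and 4 when centred on ribosomal protein genes. Gldc, the glycine cleavage decarboxylase, had 1.25 ± 0.11 (SE), and Tdh, the threonine dehydrogenase on which mouse embryonic stem cells rely, had 0.60 ± 0.10 (SE). Of 18 genes that supply or compete for 2-oxoglutarate, 2 were past the threshold, both positive, with Idh3g at 0.30 and Got1 at 0.28. This count was 4 on removal of the GC and length trend, 2 with all genes then centred, and 1 when centred on ribosomal protein genes, where the list's median turned to -0.032. Methyl-CpG readers had 3 of 12 past the threshold, all positive. These were Zfp57, which guards methylation at imprinted regions, at 1.36 ± 0.13 (SE), Zbtb38 at 0.60 and Zfp445, which works with Zfp57, at 0.36 in the authors' deposited table. None of Mbd1 to Mbd6 was past it by the authors' adjusted p-values.

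Germline genes known from other work to be silenced by promoter methylation were, where past the threshold, positive. Of the 29 with a row, 20 were past the threshold and positive and 0 were past it on the negative side in the authors' deposited table, and 19 of the 20 were also beyond the authors' limit. At an unadjusted p-value under 0.05 from DESeq2 these counts were 21 and 1, the negative gene being Tdrd1 of the piRNA pathway (-0.63). Removal of the GC and length trend gave 20 and 1, or 19 and 1 with all genes then centred. Over all genes the same settings gave 3573 and 2281, or 2844 and 2649. Without these settings, 14.6% of all genes were past the threshold and positive and 15.9% negative. The median log2 fold change of the list was 1.39, against 0.0097 for all genes. The list was drawn up with earlier results of these data known, so it is no independent evidence of a direction. Rpl10l, a testis ribosomal protein gene, had 4.18 ± 0.17 (SE), and Rhox5, a homeobox gene of the X chromosome, had 2.95 ± 0.17 (SE) by the authors' deposited table. Hormad1 and Mael, of meiosis and the piRNA pathway, had 2.92 and 2.78, and Dazl, the germ cell RNA-binding gene, had 1.16. Sycp3, a synaptonemal complex gene of the same list, had -0.13 ± 0.22 (SE). Zfp42 stands also among the naive pluripotency factors, and without it 19 of 28 were past the threshold and positive. Rpl10l, Tuba3a and the Rhox genes have close copies, so their counts are uncertain. DNA methylation itself was not measured.

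Genes of the pluripotent states are given beside the enzymes, since both differed in this comparison. Among all genes 14.6% were past the threshold and positive and 15.9% negative. Of 11 naive factors, 9 were past the threshold and positive and 1, Dppa3, negative by the authors' deposited table, around a median of 0.73. Tbx3 had 2.39 and Zfp42 had 1.10. Of 10 formative and primed epiblast factors, 1, Foxd3, was past the threshold and positive and 7 were negative, with a median of -1.12. Pou3f1 had -2.66 and Fgf5 -7.17 in the authors' deposited table. Dnmt3b, a gene of the primed epiblast, was on the side of the second list, as were Tet3 and Tdg. Dnmt3l, Tet1, Tet2, Dnmt1 and Uhrf1 were on the side of the first, and Dnmt3a was not past the threshold. The first list was mostly positive and the second mostly negative, so this placing only restates each enzyme's sign. The Dnmt3b and Tdg calls were lost on removal of the GC and length trend. With all genes then centred, the Tdg call was present and that of Dnmt3b was not. Whether these lists account for the enzyme values was not tested.

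**Figure D5:**
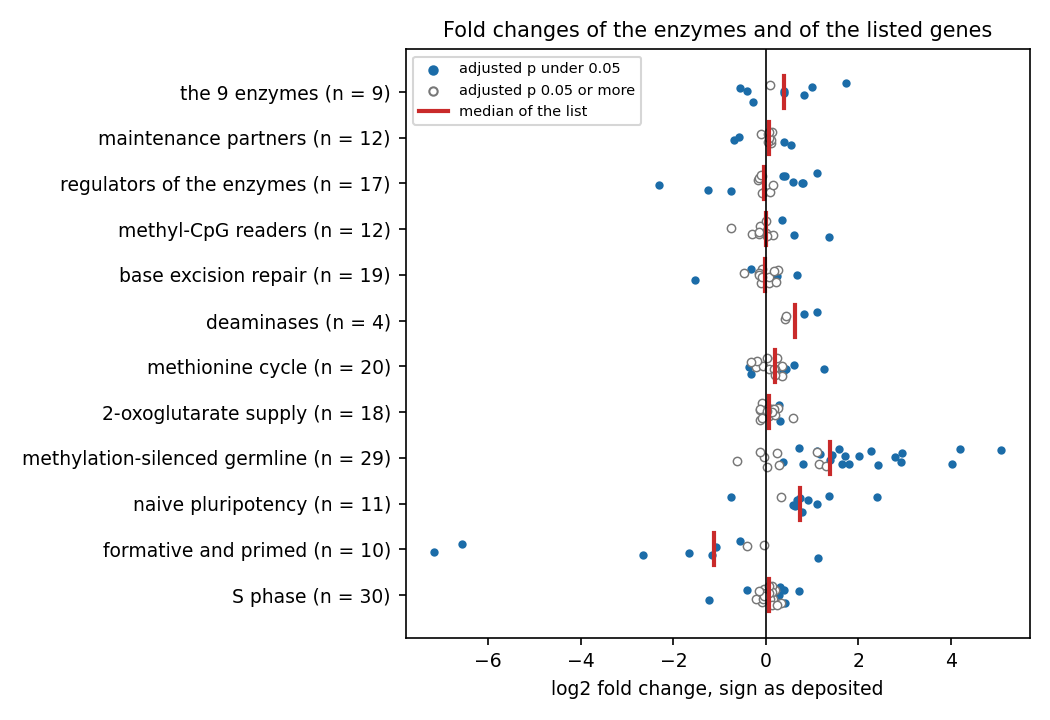
Each point is 1 gene, placed by its log2 fold change in the authors' deposited table (horizontal axis, sign as deposited), in rows for the 9 enzymes and 11 gene lists, with n the genes that had a row. Filled points are past an adjusted p-value of 0.05, open points are not, and the bars mark medians, which are 1.39 for the germline list, 0.73 for the naive list and -1.12 for the formative and primed list.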

How the data were processed

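Polyadenylated RNA of 6 samples in 2 groups was sequenced as paired ends on a DNBSEQ instrument, per the labels' protocols. The submitters' processing notes name FastQC 0.12.1, Trimmomatic 0.39, STAR 2.7.11b, RSEM 1.3.3, DESeq2 1.45.3 and the build GRCm39, with no role or order. Annotation release, strandedness, model formula and reference group are not given in the sources used here.

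All results rest on the authors' own comparison. Per the file headers its columns are those of DESeq2 output. The mean normalized count is a signal that the authors averaged over libraries, the fold change and its standard error are deposited on the log2 scale, and the statistic is a deposited score that equals their ratio within 5.77e-07. Neither the p-value nor the adjusted p-value deposited by the authors was altered. The authors' calls up and down equal an adjusted p-value under 0.05 with an absolute log2 fold change over 0.5, with 0 exceptions. A table of counts was not used, because its 6 columns carry run and barcode numbers that match no label. The planned edgeR test, values per sample, library depth and genes most like a member by pattern could therefore not be given. The table was read as a comparison of the sorted groups because the labels hold only these.

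Intervals, ranks, levels per kb and list counts were computed with Python 3.11.15 and pandas 2.3.3. GC content and length came from GENCODE M21 (GRCm38) by gene identifier for 16795 of 17110 genes, and their joint loess trend (span 0.3, R 4.3.3) was removed as an alternative (with and without centring on all genes), with p-values recomputed from the deposited standard errors. Centring, recomputed p-values and trend removal were tested on simulated data, in which the trend followed GC content alone. Named genes are the 9 enzymes, every regulator past the threshold and the 2 genes with the smallest p-value of each other list. This rule was not applied to the ribosomal protein genes, which serve only for centring. Others named, such as Pou5f1, Sox2, Hormad1, Mael, Dazl, Sycp3, Pcna and the glycosylases, were chosen after their values were seen. The enzymes and lists were chosen with earlier results of these data known.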

Additional observations from a re-analysis of the deposited data

How the results depend on the processing

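No paired analysis was possible because the deposited comparison holds no values per sample. For the same reason other normalizations, count filters, DESeq2 on the counts and leaving out each replicate were not run, so whether 1 library decides a value is not known. Under the 4 scalings that move fold changes, 33 of 36 values of the 9 enzyme genes kept direction and side of the threshold, 3 kept direction without the call, and 0 reversed. Centring alone, on all genes or on ribosomal protein genes, is a constant shift of 0.0097 or 0.093. Each shift is smaller than every enzyme's absolute fold change, so no direction could turn under it. Only the scalings with the GC and length trend removed could turn 1. The other alternatives change only limits or the p-value adjustment, so no direction could turn under them either. Of the main 5 positive and 3 negative enzymes, an adjusted p-value under 0.01 left 1 negative, without Dnmt3b (-0.40) and Tdg (-0.28). The limit of 0.5 left 3 positive and 1 negative, without Dnmt1 (0.39), Uhrf1 (0.39), Dnmt3b (-0.40) and Tdg (-0.28). A limit of 1 left 2 positive and 0 negative, without these and Tet1 (0.83) and Tet3 (-0.57). These losses follow from the stricter limits themselves. With the GC and length trend removed, 1 negative enzyme was left, with Dnmt3b at -0.28 (adjusted p-value 0.172) and Tdg at -0.18 (adjusted p-value 0.129), and the cause was not tested. Removal shifted the median of all genes to 0.067, so the result was also centred on it, an alternative chosen after seeing the data, which left 2 negative enzymes, with Dnmt3b at -0.34 (adjusted p-value 0.0809) and Tdg called. The calls of all genes, 2492 positive and 2719 negative, became 3573 and 2281 on trend removal, 2844 and 2649 with centring as well, and 1864 and 3508 when centred on ribosomal protein genes. Centring on all genes or on 81 ribosomal protein genes (a shift of 0.093) and adjustment over genes with a mean of at least 50 changed no enzyme's call. Over these scalings Dnmt3l lay between 1.64 and 1.73, Tet1 between 0.73 and 1.03, Tet2 between 0.91 and 1.26, and Dnmt3a between 0.0047 and 0.29.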

Other observations

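Cytidine deaminases, once proposed to take part in demethylation, were positive where they passed the test. In the authors' deposited table, 2 of 4 were past the threshold and positive and 0 negative, beside 14.6% and 15.9% of all genes. Apobec3, a restriction factor of retroviruses, had 0.82 ± 0.088 (SE). Apobec2 had 1.10 ± 0.36 (SE) at a mean count of 61.4. The gene with the smallest p-value of the whole table was Morc1 (ENSMUSG00000022652), known for silencing of transposons by DNA methylation in male germ cells. Its log2 fold change was 3.70 ± 0.098 (SE) at a mean normalized count of 2077 in the authors' deposited table. It was in none of the lists and is named after its value was seen.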
